A study of Rattus norvegicus with 12 samples.

Results

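Ribosome biogenesis and nucleolar genes were followed in articular chondrocytes of the rat knee, as 41 genes taken by symbol from a table of 28546 genes. The set holds the growth regulator Myc, RNA polymerase I and its factors, scaffold proteins of the nucleolus, the small nucleolar ribonucleoproteins (snoRNPs) of both classes and assembly factors of the small and the large ribosomal subunit. Of the 41 genes, 39 had at least 1 FPKM (fragments per kilobase of transcript, scaled to the mapped reads of a library) in at least 3 of 12 libraries and were tested, among 11373 such genes in all. Nhp2, a core protein of the box H/ACA snoRNPs, was listed at 0 in all 12 libraries, and Heatr1, a small subunit factor, was listed at 0.01 to 0.04 FPKM. Neither was tested.

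Making ribosomes is a major biosynthetic effort of a growing cell. In the nucleolus RNA polymerase I transcribes the ribosomal RNA precursor, snoRNPs guide its methylation and pseudouridylation and its cleavage, and a long series of assembly factors joins the RNA with ribosomal proteins into the small and large subunits, which are finished in the cytoplasm. MYC is known as a transcriptional activator of many genes of this pathway. In cartilage the pathway helps to set how much protein a chondrocyte can make, matrix included.

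The groups were Lipo-CGS, Lipo, Saline and uninvolved knees, with 3 libraries in each. Knees of male Sprague Dawley rats were injured by rupture of the anterior cruciate ligament with a single compressive load, a model of posttraumatic osteoarthritis, and from 4 weeks after injury they received an injection into the joint every 10 days for 8 weeks. Lipo-CGS knees received liposomes loaded with CGS21680, a selective agonist of the adenosine receptor A2AR, Lipo knees empty liposomes and Saline knees saline, while uninvolved knees had no injury. The study's wording reads as if the uninvolved knees were the unaffected knees of injured rats, but which rats gave which library, and their age, are not given in the sources used here. Cells were released from the cartilage with enzymes and cultured before RNA was taken, so that the values are those of cultured cells of all groups. Cartilage of 3 rats was pooled for each library. The methods count fewer rats per group than 3 separate pools of 3 would need, so that libraries of a group may share rats and may not be independent. Which ones do is not stated, and p-values measure only the spread between these libraries, which may be partly technical.

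How many reads lie behind each value is unknown, but the step that a single read makes in 48 weakly expressed genes put the relative depth of the 12 libraries at 0.808 to 1.18. Total FPKM per library was 421981 to 440911 in Lipo-CGS, 406630 to 431169 in Lipo, 451738 to 464616 in Saline and 441989 to 544170 in uninvolved knees. All 10 chondrocyte markers passed the filter, with summed levels of 11609 to 17185 FPKM in Lipo-CGS, 9025 to 14819 FPKM in Lipo, 5682 to 10531 FPKM in Saline and 9049 to 10049 FPKM in uninvolved knees. Most of each sum was Col2a1. By the test described below, 5 of the 10 had higher and 5 lower fitted values in Lipo than in uninvolved knees, and 7 and 3 in Lipo-CGS. Past both thresholds 3 rose in Lipo, among them Comp and Col9a1, and 1, Prg4, fell, beside 14.1% and 16.3% of all genes. Endothelial markers summed to at most 0.35 FPKM and erythroid markers to at most 0.05 FPKM in any library. Leukocyte markers, 4 of the 9 in the table tested, summed to 27.2 to 37.2 FPKM in Lipo-CGS, 24.5 to 26.7 FPKM in Lipo, 47.9 to 56.7 FPKM in Saline and 45.2 to 71.7 FPKM in uninvolved knees, with 1 marker at 0 in all 12 libraries. Most of each sum was Cd14, with means of 28.8, 21.7, 38.2 and 46.6 FPKM in the same order. Ptprc reached at most 0.09 FPKM and Csf1r at most 0.45 FPKM in any library. Fcer1g was at 0.65 to 1.91 FPKM in Lipo and 0.55 to 1.43 FPKM in uninvolved knees. Fibroblast markers, 6 of the 8 in the table tested, summed to 184 to 237 FPKM in Lipo-CGS, 250.04 to 284 FPKM in Lipo, 106 to 350 FPKM in Saline and 92.8 to 115 FPKM in uninvolved knees. Osteoblast markers, 2 of the 5 in the table tested, summed to 23.9 to 34.1 FPKM in Lipo-CGS, 45.8 to 101.9 FPKM in Lipo, 52.6 to 114 FPKM in Saline and 99.04 to 132 FPKM in uninvolved knees. The part of these other cell types in the results below was not tested, and in bulk RNA fewer cells of a type and less RNA per cell cannot be told apart.

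Both liposome groups had less RNA of many ribosome biogenesis genes than knees without liposomes. The FPKM of the 41 genes added up to 1163 to 1179 in Lipo-CGS, 1122 to 1173 in Lipo, 1521 to 1682 in Saline and 1457 to 1695 in uninvolved knees. As a share of all FPKM these sums were 0.266% to 0.279% in Lipo-CGS, 0.270% to 0.289% in Lipo, 0.331% to 0.372% in Saline and 0.312% to 0.341% in uninvolved knees, and the liposome groups lay below the other groups on either scale. Values were compared with limma on log2(FPKM + 0.5), a scale on which the fold changes of low genes are understated, and a gene was called at an adjusted p under 0.05 over all genes tested together with a fold change over 1.5. In Lipo against uninvolved knees 9 of the 39 genes fell and 2 rose, beside 16.3% and 14.1% of all genes tested. By the adjusted p alone 23 were lower and 2 higher, beside 28.9% and 26.5% of all genes. In Lipo-CGS against uninvolved knees 8 fell and 0 rose, beside 14% and 11.7% of all genes, and 23 were lower and 2 higher by the adjusted p alone, beside 26.1% and 23.6%. Past both thresholds the shares of falling members, 23.1% in Lipo and 20.5% in Lipo-CGS, stood beside 16.3% and 14% of all genes, and by the adjusted p alone 59% of the members were lower in each comparison.

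Most members lay on the same side of uninvolved knees, by moderate amounts. Their median log2 fold change was -0.29 in Lipo and -0.27 in Lipo-CGS against uninvolved knees, beside medians of -0.0065 and 0.0072 over all genes tested. In Lipo 32 of 39 genes had a fitted value below uninvolved knees, beside 50.5% of all genes, and 7 above, beside 49.5%. The libraries of 30 members lay below uninvolved knees without overlap and of 3 above, beside 30.6% and 28.1% of all genes. In Lipo-CGS 31 fitted values were lower and 8 higher, beside 49.4% and 50.6% of all genes, and 29 genes lay below and 1 above uninvolved knees without overlap, beside 30.8% and 28.6%. When every library was scaled to the same total FPKM, the median of all genes moved to 0.21 in Lipo and 0.18 in Lipo-CGS, and the members' medians to -0.062 and -0.089. Relative to the median of all genes the members' median was -0.29 as deposited and -0.28 after this scaling in Lipo, and -0.28 and -0.26 in Lipo-CGS. With the same total, 7 members fell and 2 rose in Lipo, beside 9.14% and 24% of all genes, and 5 fell and 2 rose in Lipo-CGS, beside 8.98% and 19.3%. Fitted values were then below uninvolved knees for 22 genes in Lipo and 25 in Lipo-CGS.

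**Figure D1:**
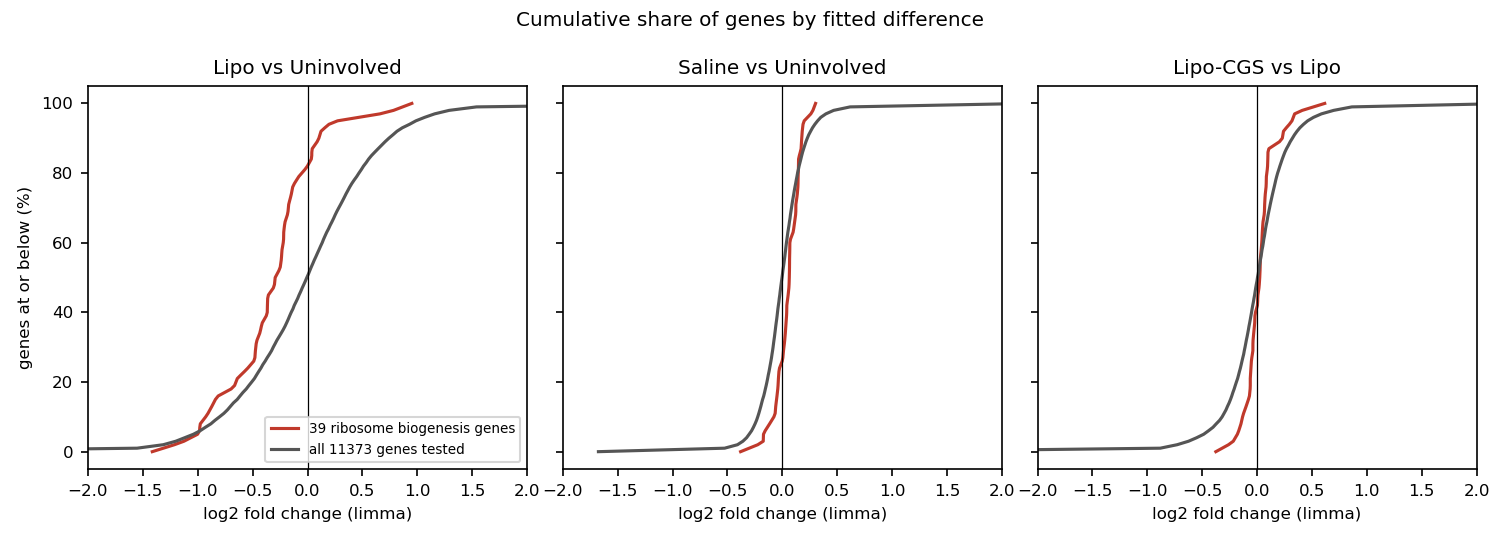
Cumulative share of genes (vertical axis, percent) at or below a given log2 fold change (horizontal axis) for the 39 ribosome biogenesis genes and for all 11373 genes tested, in Lipo against uninvolved knees, Saline against uninvolved knees and Lipo-CGS against Lipo. Over most of its range the curve of the members lies to the left of that of all genes in Lipo, with a median of -0.29 against -0.0065, and their medians are 0.064 and 0.024 in the other 2 panels.

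The promoters of the members were read for a short sequence motif that MYC and its partner MAX bind, the E-box CACGTG, which several other basic helix-loop-helix factors also bind. RefSeq promoters of assembly GRCr8, each 250 bases before to 50 bases after a start site, were found for 37 of the 41 genes by symbol. Myc, Bop1, Rrs1 and Wdr43 had no entry. The motif reads the same on both strands and can share no base with the other motifs searched. It occurred in 12 of the 37 promoters (32.4%), in 6.42% of all 33469 promoters and in 9.34% of the 9258 promoters of tested genes. The core CCGGAAG of ETS factors, on either strand, occurred in 15 (40.5%), against 8.75% and 18.3%, TCGCGA in 5 (13.5%), against 2.29% and 5.29%, and AAGATGG, the core of YY1 sites, in 1 (2.7%), against 7.01% and 8.61%. Of those 3 motifs, AAGATGG can overlap either of the others, which cannot overlap each other. All 12 genes with an E-box were tested. In Lipo against uninvolved knees 2 of them fell and 1 rose, beside 16.3% and 14.1% of all genes. By the adjusted p alone 7 were lower, beside 28.9% of all genes. Of the 23 tested genes whose promoter lacked it, 6 fell and 1 rose, and 14 were lower by the adjusted p alone.

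The E-box stretches below are shown for genes that behaved differently in Lipo, with the motif in capitals. Dkc1 (chrX:157751437-157751502 on the plus strand) and Fbl (chr1:92597416-92597445 on the plus strand) fell, Noc3l (chr1:245997673-245997702 on the minus strand) rose, Pes1 (chr14:83074266-83074331 on the plus strand), Ltv1 (chr1:9398583-9398648 on the minus strand) and Nle1 (chr10:68340181-68340220 on the minus strand) were lower by the adjusted p alone, and Gnl3 (chr16:6219783-6219837 on the minus strand) did not pass. Those of Fbl and Noc3l lie just after the start site and the others before it. All are written 5′ to 3′ on the strand of the gene.
Dkc1: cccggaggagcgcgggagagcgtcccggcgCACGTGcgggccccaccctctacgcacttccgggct
Fbl: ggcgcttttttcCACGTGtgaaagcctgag
Noc3l: ttgagctctgggCACGTGtgtgtttcctac
Pes1: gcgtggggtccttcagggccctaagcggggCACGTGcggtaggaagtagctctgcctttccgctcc
Ltv1: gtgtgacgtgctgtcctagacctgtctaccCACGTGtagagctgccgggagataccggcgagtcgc
Nle1: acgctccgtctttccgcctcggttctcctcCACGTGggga
Gnl3: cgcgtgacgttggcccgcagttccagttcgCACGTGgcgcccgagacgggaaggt
Members with the same hexamer thus stood on both sides of the call. A match is a stretch of letters and was not tested as a binding site.

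Myc, the regulator of the set, was clearly lower in both liposome groups. Its RNA stood at 28.01, 27.3 and 28.8 FPKM in the Lipo-CGS libraries, 24.6, 25.8 and 29.1 FPKM in Lipo, 52.8, 42.5 and 63.9 FPKM in Saline and 53.1, 51.6 and 38.4 FPKM in uninvolved knees. All 6 liposome libraries were below all 6 others, and the Saline and uninvolved libraries overlapped. The log2 fold change was -0.83 (SE 0.15, adjusted p = 0.000942) in Lipo and -0.74 (SE 0.15, adjusted p = 0.00232) in Lipo-CGS against uninvolved knees by limma. Against Saline it was -0.97 (SE 0.15, adjusted p = 0.000784) in Lipo and -0.89 (SE 0.15, adjusted p = 0.00159) in Lipo-CGS. With the same total in every library the Lipo-CGS value against uninvolved knees was -0.56, under the fold threshold.

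RNA polymerase I and its factors, 5 genes, did not fall as a group. In Lipo against uninvolved knees 1 rose, 0 fell and 2 were lower by the adjusted p alone, beside 14.1%, 16.3% and 28.9% of all genes. Their median log2 fold change was -0.0088. With the same total per library the median was 0.22, beside 0.21 over all genes. Polr1a and Polr1b are the largest subunits and form the catalytic core of the enzyme. Polr1a stood at 10.9, 11.3 and 10.2 FPKM in the Lipo-CGS libraries, 11.3, 10.3 and 11.6 FPKM in Lipo, 11.5, 10.96 and 9.38 FPKM in Saline and 10.1, 10.4 and 10.5 FPKM in uninvolved knees, and all 4 groups overlapped. Polr1b stood at 8.22, 8.01 and 7.79 FPKM in the Lipo-CGS libraries, 7.58, 7.70 and 8.09 FPKM in Lipo, 9.18, 8.93 and 8.65 FPKM in Saline and 7.37, 8.46 and 7.72 FPKM in uninvolved knees. The 3 Saline libraries were the highest and the other groups overlapped. In Lipo the log2 fold change against uninvolved knees was 0.098 (SE 0.090, adjusted p = 0.377) for Polr1a and -0.0088 (SE 0.078, adjusted p = 0.934) for Polr1b, with 95% confidence intervals of -0.100 to 0.30 and -0.18 to 0.16. With the same total per library they were 0.33 (adjusted p = 0.0309) and 0.22 (adjusted p = 0.0948) by limma. Polr1a was then higher by the adjusted p alone.

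The shared subunit and the binding factor of the ribosomal RNA genes were somewhat lower in liposome groups than in uninvolved knees as deposited. With the same total per library neither passed the adjusted p in that comparison. Polr1c, a subunit common to RNA polymerases I and III, stood at 30.2, 30.2 and 29.1 FPKM in the Lipo-CGS libraries, 26.3, 31.9 and 28.7 FPKM in Lipo, 39.4, 38.6 and 39.4 FPKM in Saline and 39.01, 39.2 and 34.1 FPKM in uninvolved knees. Ubtf, which binds the ribosomal RNA genes and keeps them open, stood at 28.3, 26.6 and 25.4 FPKM in the Lipo-CGS libraries, 30.4, 27.98 and 27.7 FPKM in Lipo, 34.3, 34.8 and 38.6 FPKM in Saline and 31.7, 34.5 and 34.1 FPKM in uninvolved knees. For both genes the 6 liposome libraries were below the 6 others. The differences stayed under the fold threshold, with log2 fold changes against uninvolved knees of -0.37 (SE 0.086, adjusted p = 0.00387) in Lipo and -0.32 (SE 0.086, adjusted p = 0.00985) in Lipo-CGS for Polr1c, and of -0.22 (SE 0.080, adjusted p = 0.0361) and -0.32 (SE 0.080, adjusted p = 0.00726) for Ubtf. With the same total per library these were -0.13 (adjusted p = 0.183) and -0.14 (adjusted p = 0.158) for Polr1c, and 0.020 (adjusted p = 0.887) and -0.14 (adjusted p = 0.316) for Ubtf. Against Saline under that scaling Polr1c was still lower by limma, at -0.29 (adjusted p = 0.0111) in Lipo and -0.30 (adjusted p = 0.012) in Lipo-CGS. Ubtf was at -0.18 (adjusted p = 0.202) in Lipo and -0.34 (adjusted p = 0.0331) in Lipo-CGS.

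Rrn3 was the only gene of its group called in Lipo against uninvolved knees. As deposited 2 of the 5 genes had fitted values above uninvolved knees and 3 below. With the same total per library these numbers were 4 and 1. The Rrn3 protein ties RNA polymerase I to the promoter of the ribosomal RNA genes and is known as a point of control by growth signals. It stood at 3.59, 6.15 and 5.36 FPKM in the Lipo-CGS libraries, 6.32, 6.73 and 6.56 FPKM in Lipo, 3.61, 3.39 and 3.61 FPKM in Saline and 2.47, 2.58 and 4.78 FPKM in uninvolved knees. The 3 Lipo libraries were the highest, while Lipo-CGS replicate 1 lay among the Saline libraries and uninvolved replicate 3 above them. It rose in Lipo by a log2 fold change of 0.95 (SE 0.21, adjusted p = 0.00321) against uninvolved knees and of 0.80 (SE 0.21, adjusted p = 0.0106) against Saline. In Lipo-CGS the value against uninvolved knees was 0.57 (SE 0.21, adjusted p = 0.0432), just under the fold threshold, and 0.78 without Lipo-CGS replicate 1 and 0.84 without uninvolved replicate 3, both past it. Over all alternatives it ran from 0.43 to 0.84, and its limma adjusted p reached 0.165, so that it did not always pass. The difference of Lipo-CGS from Lipo was -0.38 (SE 0.21, adjusted p = 0.377).

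**Figure D2:**
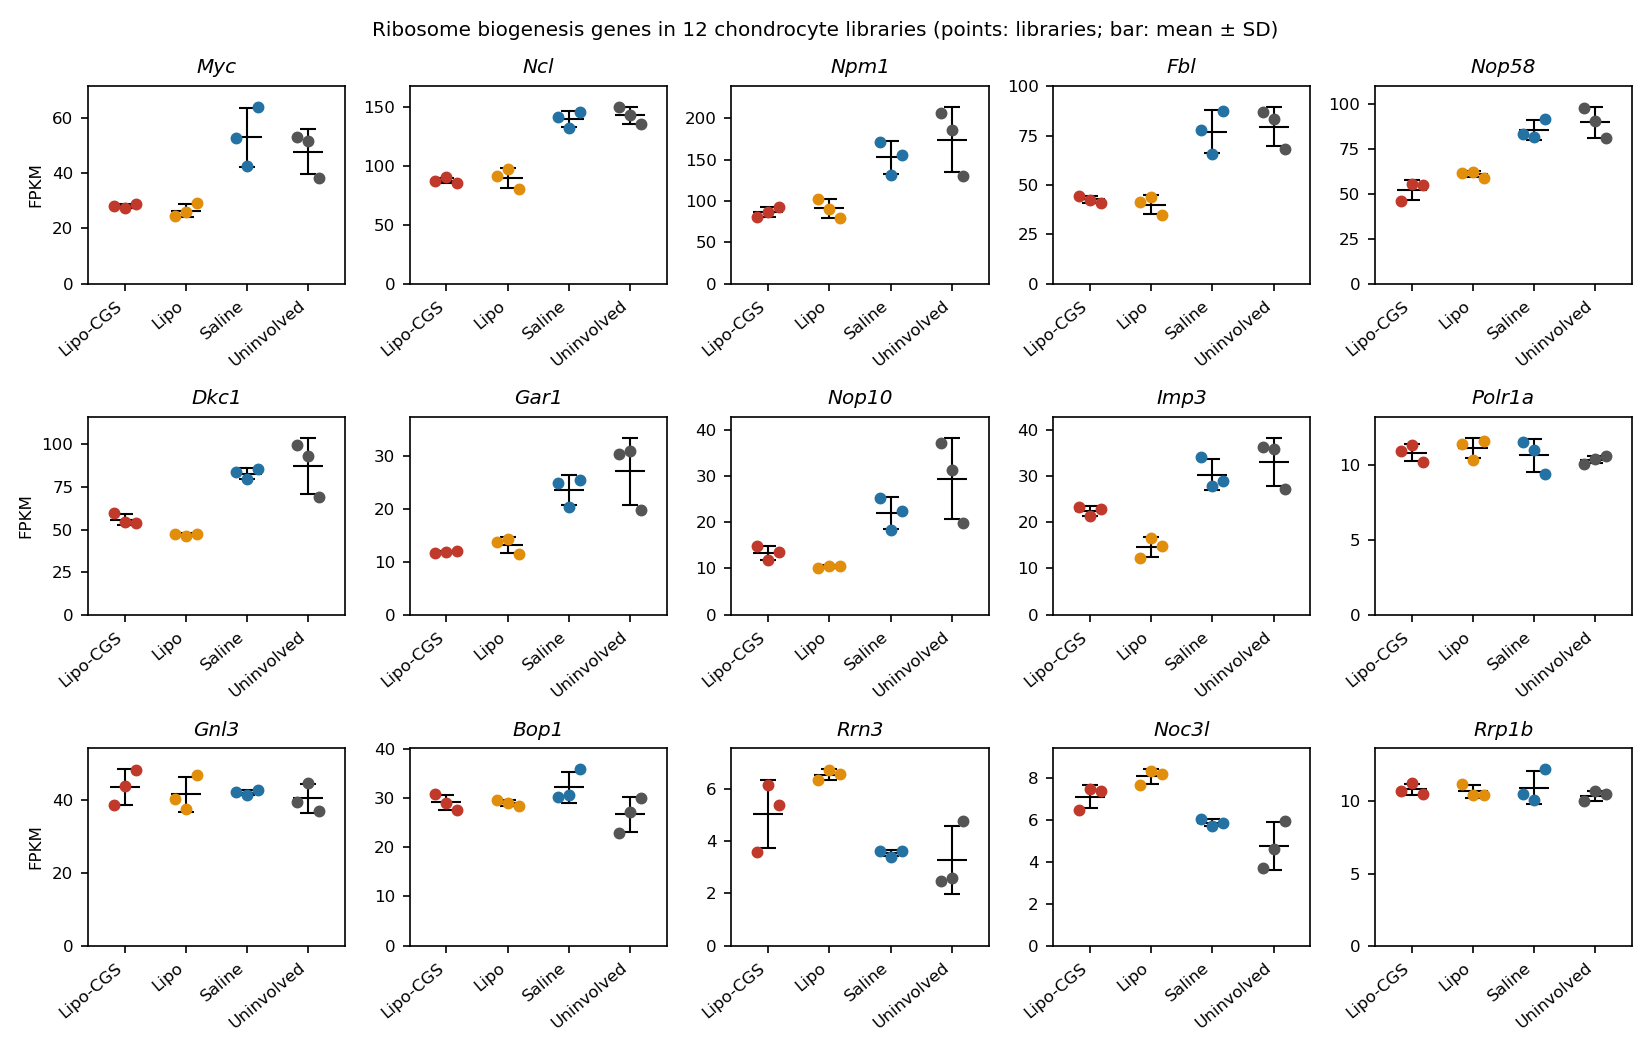
FPKM (vertical axes, from 0) of 15 ribosome biogenesis genes in each library of Lipo-CGS, Lipo, Saline and uninvolved knees, with points for libraries and bars for the mean ± SD of 3. From Myc to Imp3 all liposome libraries lie below all others, Polr1a, Gnl3, Bop1 and Rrp1b overlap between liposome groups and uninvolved knees, and Rrn3 and Noc3l are highest in Lipo.

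Among 6 nucleolar scaffold and helper proteins, Ncl and Npm1 fell in both liposome groups and the other 4 were not called. Against uninvolved knees 16.3% of all genes fell in Lipo and 14% in Lipo-CGS. The median of the 6 in Lipo was -0.13, and 0.11 with the same total per library, beside 0.21 over all genes under that scaling. Ncl encodes nucleolin, which binds the nascent precursor RNA, and stood at 87.2, 90.4 and 85.7 FPKM in the Lipo-CGS libraries, 92.02, 97.2 and 80.5 FPKM in Lipo, 142, 133 and 146 FPKM in Saline and 149.97, 144 and 136 FPKM in uninvolved knees. Npm1 encodes nucleophosmin, the main protein of the outer nucleolus, and stood at 80.7, 87.1 and 92.8 FPKM in the Lipo-CGS libraries, 102, 90.8 and 79.9 FPKM in Lipo, 171, 132 and 156 FPKM in Saline and 206, 186 and 131 FPKM in uninvolved knees. In each gene the 6 liposome libraries lay below the 6 others. Per length of transcript they were the most abundant members in every group. Against uninvolved knees the log2 fold change of Ncl was -0.67 (SE 0.089, adjusted p = 0.000189) in Lipo and -0.70 (SE 0.089, adjusted p = 0.000228) in Lipo-CGS. That of Npm1 was -0.92 (SE 0.16, adjusted p = 0.000825) and -0.98 (SE 0.16, adjusted p = 0.000876). Under the same total per library the Ncl values shrank to -0.43 and -0.52, below the fold threshold, and Npm1 stayed past it. The RefSeq gene list of the rat holds many pseudogenes or copies named after Npm1 and several after Ncl, Fbl, Dkc1, Nop10 and Noc3l, and how reads shared with them were counted is not given in the sources used here, so these levels are uncertain.

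Gnl3 and Ddx21 had fitted values on the other side of 0, without passing the test as deposited. Gnl3 encodes nucleostemin, a GTPase of the nucleolus, and stood at 38.4, 43.6 and 48.2 FPKM in the Lipo-CGS libraries, 40.2, 37.4 and 46.7 FPKM in Lipo, 41.99, 41.2 and 42.7 FPKM in Saline and 39.3, 44.6 and 37.00 FPKM in uninvolved knees. Ddx21, an RNA helicase, stood at 7.36, 8.33 and 7.37 FPKM in the Lipo-CGS libraries, 7.98, 8.01 and 8.11 FPKM in Lipo, 8.40, 7.16 and 7.68 FPKM in Saline and 6.61, 6.03 and 7.92 FPKM in uninvolved knees. Gnl3 overlapped between all groups, and for Ddx21 the Lipo libraries lay just above the uninvolved ones while every other pair of groups overlapped. In Lipo against uninvolved knees the log2 fold changes were 0.038 (SE 0.11, adjusted p = 0.787) and 0.22 (SE 0.10, adjusted p = 0.0906). With the same total per library they were 0.28 (adjusted p = 0.0657) and 0.45 (adjusted p = 0.0166) by limma. Ddx21 was then higher by the adjusted p alone. Nolc1, which accompanies snoRNPs, and Mybbp1a, a binding partner of the polymerase I machinery, had log2 fold changes in Lipo-CGS against uninvolved knees of -0.21 (SE 0.081, adjusted p = 0.0484) and -0.23 (SE 0.073, adjusted p = 0.0228), past the adjusted p but not the fold. Scaled to the same total they were -0.029 (adjusted p = 0.822) and -0.047 (adjusted p = 0.674).

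The box C/D snoRNP proteins, which carry out ribose methylation of ribosomal RNA, were lower throughout. All 4 were lower by the adjusted p alone in each of the 4 comparisons of a liposome group with uninvolved or Saline knees. In these 21.6% to 28.9% of all genes were lower that way. Past the fold threshold as well 2 fell in Lipo and 2 in Lipo-CGS against uninvolved knees, beside 16.3% and 14% of all genes. Fbl, the methyltransferase fibrillarin, stood at 44.7, 42.4 and 41.02 FPKM in the Lipo-CGS libraries, 41.2, 44.03 and 35.05 FPKM in Lipo, 78.05, 65.8 and 87.3 FPKM in Saline and 86.8, 83.7 and 68.4 FPKM in uninvolved knees. Nop56, a core protein beside it, stood at 50.9, 54.8 and 49.3 FPKM in the Lipo-CGS libraries, 55.8, 54.7 and 50.2 FPKM in Lipo, 81.8, 78.2 and 74.96 FPKM in Saline and 73.9, 76.7 and 74.1 FPKM in uninvolved knees. In either gene no liposome library reached any other. All 4 were still lower by the adjusted p against uninvolved knees with the same total per library, in Lipo and in Lipo-CGS. Beside them stood 17.5% and 17.4% of all genes, and the medians of the 4 were -0.36 and -0.49. The log2 fold change against uninvolved knees was -0.98 (SE 0.13, adjusted p = 0.000176) in Lipo and -0.88 (SE 0.13, adjusted p = 0.000414) in Lipo-CGS for Fbl, and -0.48 (SE 0.076, adjusted p = 0.000449) and -0.53 (SE 0.076, adjusted p = 0.000414) for Nop56. Nop56 was past the fold threshold only against Saline in Lipo-CGS, at -0.60 (SE 0.076, adjusted p = 0.000470), and not there without Lipo-CGS replicate 3 (-0.56) or Saline replicate 1 (-0.56), with median-of-ratios scaling (-0.58) or with the same total per library (-0.52).

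Nop58, the partner of Nop56, ranged over 45.95 to 55.5 FPKM in Lipo-CGS, 58.7 to 61.9 FPKM in Lipo, 81.5 to 91.5 FPKM in Saline and 80.8 to 97.7 FPKM in uninvolved knees. It fell in Lipo-CGS with a log2 fold change of -0.78 (SE 0.099, adjusted p = 0.000234) against uninvolved knees. In Lipo the value was -0.55 (SE 0.099, adjusted p = 0.000814). Without uninvolved replicate 3 it was -0.62 and past the fold threshold, and with the same total per library it was -0.31. Between Lipo-CGS and Lipo its libraries did not overlap, with a log2 fold change of -0.22 (SE 0.099, adjusted p = 0.255). Rrp9, a protein of the U3 snoRNP that guides the first cuts of the precursor, ranged over 21.7 to 22.9 FPKM in Lipo-CGS, 20.1 to 22.5 FPKM in Lipo, 33.3 to 37.2 FPKM in Saline and 28.2 to 37.6 FPKM in uninvolved knees. It fell in Lipo with a log2 fold change of -0.64 (SE 0.10, adjusted p = 0.000463) against uninvolved knees, a value of -0.56 without uninvolved replicate 2 and of -0.40 with the same total per library, both under the fold threshold. In Lipo-CGS it was -0.57 (SE 0.10, adjusted p = 0.00125). It was -0.68 without uninvolved replicate 3, past that threshold, and -0.39 with the same total per library.

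The box H/ACA snoRNP proteins convert uridine to pseudouridine in ribosomal RNA and also belong to telomerase. Against uninvolved knees they had the lowest median of all roles in both liposome groups. Against Saline the regulator Myc alone was lower, at -0.97 in Lipo and -0.89 in Lipo-CGS, beside medians of -0.81 and -0.69. All 3 box H/ACA genes tested fell in both liposome groups against uninvolved knees, beside 16.3% of all genes in Lipo and 14% in Lipo-CGS. Their medians were -0.99 in Lipo and -1.07 in Lipo-CGS, or -0.75 and -0.89 with the same total per library. Dkc1, the pseudouridine synthase dyskerin, stood at 59.4, 54.2 and 53.6 FPKM in the Lipo-CGS libraries, 47.6, 46.2 and 47.3 FPKM in Lipo, 83.7, 79.4 and 85.4 FPKM in Saline and 99.9, 93.3 and 69.02 FPKM in uninvolved knees. Nop10, a small core protein, stood at 14.9, 11.8 and 13.6 FPKM in the Lipo-CGS libraries, 10.1, 10.6 and 10.5 FPKM in Lipo, 25.4, 18.3 and 22.4 FPKM in Saline and 37.1, 31.4 and 19.9 FPKM in uninvolved knees. In both genes the Lipo libraries were the lowest, the Lipo-CGS libraries came next without overlap, and Saline and uninvolved libraries overlapped above them. Gar1, another core protein, ranged over 11.6 to 12.04 FPKM in Lipo-CGS, 11.5 to 14.3 FPKM in Lipo, 20.4 to 25.4 FPKM in Saline and 19.8 to 30.9 FPKM in uninvolved knees, and its liposome groups overlapped.

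The log2 fold change of Dkc1 against uninvolved knees was -0.87 (SE 0.12, adjusted p = 0.000222) in Lipo and -0.63 (SE 0.12, adjusted p = 0.00159) in Lipo-CGS. That of Nop10 was -1.41 (SE 0.19, adjusted p = 0.000212) and -1.07 (SE 0.19, adjusted p = 0.00122), and that of Gar1 -0.99 (SE 0.16, adjusted p = 0.000469) and -1.13 (SE 0.16, adjusted p = 0.000365). Uninvolved replicate 3 was the lowest of its group for all 3. The Lipo-CGS call of Dkc1 depended on single libraries, being -0.52 without uninvolved replicate 1 and -0.57 without uninvolved replicate 2, under the fold threshold, and it was -0.45 with the same total per library. Between Lipo-CGS and Lipo, Dkc1 and Nop10 had log2 fold changes of 0.24 (SE 0.12, adjusted p = 0.304) and 0.35 (SE 0.19, adjusted p = 0.359), neither past the test.

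Assembly factors of the small subunit, 9 tested genes, were lower by smaller amounts. In Lipo against uninvolved knees all 9 had fitted values below 0, beside 50.5% of all genes. By the adjusted p alone 4 were lower, beside 28.9%, and only Imp3 fell past the fold threshold, beside 16.3%. The median of the 9 was -0.24. In Lipo-CGS 4 were lower by the adjusted p alone, beside 26.1% of all genes. Past the fold threshold 0 were called, beside 14% of all genes falling and 11.7% rising, and the median was -0.21. The sign of these differences depended on the scaling. With the same total per library the medians were -0.0076 in Lipo and -0.024 in Lipo-CGS, beside 0.21 and 0.18 over all genes. Then 5 and 6 of the 9 genes had fitted values below 0. By the adjusted p 1 in each group was lower, beside 17.5% and 17.4% of all genes. Imp3, a protein of the U3 snoRNP, stood at 23.4, 21.3 and 22.97 FPKM in the Lipo-CGS libraries, 12.3, 16.7 and 14.9 FPKM in Lipo, 34.1, 27.9 and 29.00 FPKM in Saline and 36.2, 35.9 and 27.2 FPKM in uninvolved knees. The 4 groups formed steps, with Lipo lowest, Lipo-CGS next and Saline and uninvolved knees overlapping above. Its log2 fold change was -1.15 (SE 0.13, adjusted p = 0.000134) in Lipo and -0.53 (SE 0.13, adjusted p = 0.00737) in Lipo-CGS against uninvolved knees. The Lipo-CGS value was -0.67 and called without uninvolved replicate 3, and -0.35 with the same total per library.

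Nop14, which joins the early small subunit precursor, stood at 16.99, 17.9 and 15.8 FPKM in the Lipo-CGS libraries, 17.6, 15.7 and 15.8 FPKM in Lipo, 22.97, 20.4 and 21.1 FPKM in Saline and 21.8, 21.1 and 20.5 FPKM in uninvolved knees. The liposome libraries were the 6 lowest. The difference against uninvolved knees was -0.36 (SE 0.082, adjusted p = 0.00312) in Lipo and -0.32 (SE 0.082, adjusted p = 0.00773) in Lipo-CGS. Ltv1, a late factor that leaves the small subunit near the end of assembly, stood at 51.5, 51.1 and 56.04 FPKM in the Lipo-CGS libraries, 42.1, 49.3 and 44.1 FPKM in Lipo, 57.4, 61.2 and 51.7 FPKM in Saline and 56.6, 60.6 and 57.5 FPKM in uninvolved knees. Only the Lipo libraries lay below all other groups, and Lipo-CGS overlapped Saline. Bysl, a factor needed for maturation of the small subunit, was lower by the adjusted p alone in both liposome groups, at -0.30 (SE 0.079, adjusted p = 0.00720) in Lipo and -0.33 (SE 0.079, adjusted p = 0.00604) in Lipo-CGS. Imp4, Wdr43, Wdr75, Ddx10 and Nob1, the last being the nuclease of the final cut of small subunit RNA, had log2 fold changes from -0.24 to -0.13 in Lipo, none of which passed the adjusted p. In Lipo-CGS Wdr43 passed it, at -0.22 (SE 0.080, adjusted p = 0.0386).

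**Figure D3:**
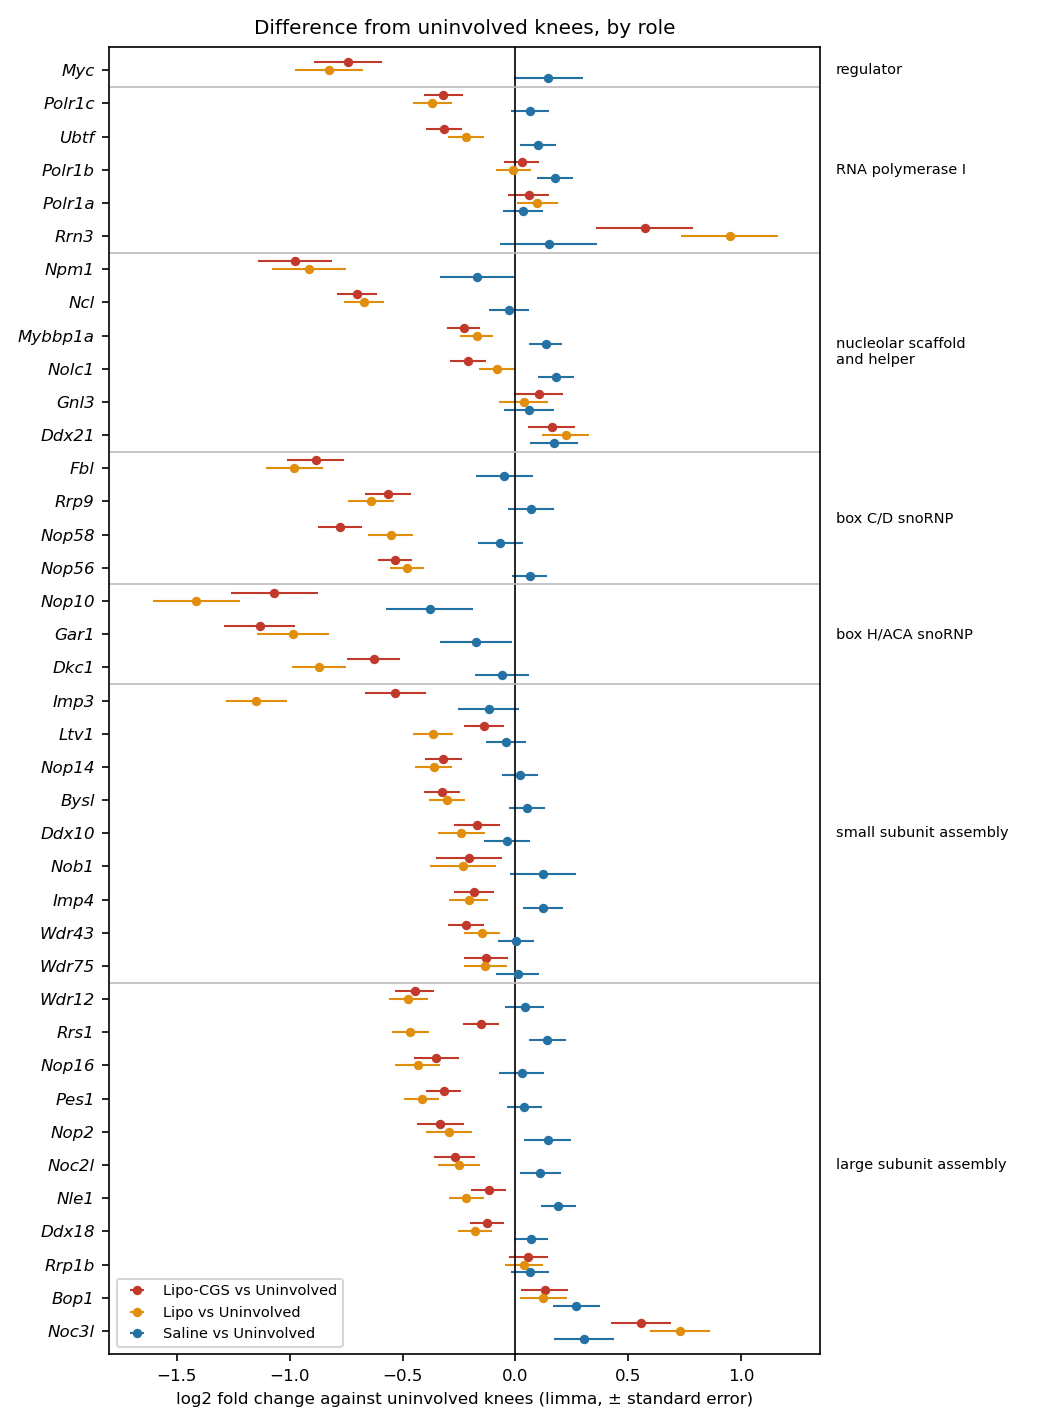
Log2 fold change against uninvolved knees (horizontal axis, limma estimate ± standard error) of the 39 tested genes, grouped by role, for Lipo-CGS, Lipo and Saline. The snoRNP proteins reach from -1.41 to -0.48 in Lipo, and the Saline values stay between -0.38 and 0.30.

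Assembly factors of the large subunit, 11 genes, were mostly lower without passing the fold threshold. In Lipo against uninvolved knees 7 were lower by the adjusted p alone, beside 28.9% of all genes. Past the fold threshold 0 fell and 1 rose, beside 16.3% and 14.1%, and the median of the 11 was -0.25. In Lipo-CGS 5 were lower and 1 higher by the adjusted p alone, beside 26.1% and 23.6% of all genes. Past the fold threshold 0 were called, beside 14% of all genes falling and 11.7% rising, and the median was -0.15. Here too the sign depended on the scaling. With the same total per library the medians were -0.012 in Lipo and 0.028 in Lipo-CGS, beside 0.21 and 0.18 over all genes. Then 1 gene in each group was lower and 1 higher by the adjusted p. Of all genes 17.5% and 17.4% were lower that way, and 24% and 19.3% rose past the fold threshold as well. Pes1, Bop1 and Wdr12 form the PeBoW complex, which processes large subunit RNA. Wdr12 stood at 18.01, 18.98 and 18.8 FPKM in the Lipo-CGS libraries, 18.8, 19.01 and 16.9 FPKM in Lipo, 27.1, 24.7 and 27.00 FPKM in Saline and 28.3, 24.8 and 23.6 FPKM in uninvolved knees. The 6 liposome libraries were below the 6 others, with log2 fold changes of -0.48 (SE 0.086, adjusted p = 0.000914) in Lipo and -0.45 (SE 0.086, adjusted p = 0.00180) in Lipo-CGS against uninvolved knees. Pes1 had -0.42 (SE 0.077, adjusted p = 0.00103) and -0.32 (SE 0.077, adjusted p = 0.00601). Bop1, by contrast, stood at 30.8, 28.9 and 27.6 FPKM in the Lipo-CGS libraries, 29.6, 28.9 and 28.3 FPKM in Lipo, 30.3, 30.5 and 35.8 FPKM in Saline and 22.9, 27.1 and 30.1 FPKM in uninvolved knees. Its liposome and uninvolved libraries overlapped, and the log2 fold change in Lipo was 0.12 (SE 0.10, adjusted p = 0.333).

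Rrs1, which in yeast helps to bring ribosomal RNA and proteins into the large subunit, stood at 24.9, 23.99 and 22.8 FPKM in the Lipo-CGS libraries, 17.9, 21.3 and 18.3 FPKM in Lipo, 30.03, 28.6 and 29.6 FPKM in Saline and 25.7, 27.7 and 26.4 FPKM in uninvolved knees. Its 4 groups did not overlap at all, with Lipo lowest, then Lipo-CGS, uninvolved knees and Saline. Against Saline it fell in Lipo with a log2 fold change of -0.61 (SE 0.081, adjusted p = 0.000448). That call was lost without Lipo replicate 1 (-0.56) or Lipo replicate 3 (-0.58) and with the same total per library (-0.47). Nle1, a factor of late nuclear maturation, stood at 14.8, 14.4 and 14.6 FPKM in the Lipo-CGS libraries, 13.5, 14.4 and 12.9 FPKM in Lipo, 18.2, 17.3 and 19.00 FPKM in Saline and 15.4, 17.1 and 15.2 FPKM in uninvolved knees. Saline lay above uninvolved knees, and both liposome groups lay below them. Its log2 fold change in Lipo was -0.22 (SE 0.077, adjusted p = 0.0324) against uninvolved knees and -0.41 (SE 0.077, adjusted p = 0.00190) against Saline.

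Rrp1b and Noc3l did not follow the group. Rrp1b, a nucleolar protein of large subunit precursors, stood at 10.8, 11.3 and 10.5 FPKM in the Lipo-CGS libraries, 11.2, 10.4 and 10.5 FPKM in Lipo, 10.5, 10.1 and 12.2 FPKM in Saline and 10.03, 10.7 and 10.5 FPKM in uninvolved knees, and all groups overlapped. Noc3l, which accompanies large subunit precursors in the nucleus, stood at 6.48, 7.48 and 7.41 FPKM in the Lipo-CGS libraries, 7.70, 8.35 and 8.23 FPKM in Lipo, 6.06, 5.73 and 5.87 FPKM in Saline and 3.71, 4.60 and 5.96 FPKM in uninvolved knees. The liposome libraries were the 6 highest and Lipo lay above Lipo-CGS. Noc3l rose in Lipo with a log2 fold change of 0.73 (SE 0.13, adjusted p = 0.000925) against uninvolved knees. Without uninvolved replicate 1 that value was 0.58, just under the fold threshold. In Lipo-CGS it was 0.56 (SE 0.13, adjusted p = 0.00556), and it passed the fold threshold without Lipo-CGS replicate 1 (0.62) or uninvolved replicate 3 (0.72). Over all alternatives the Lipo-CGS value ran from 0.41 to 0.72. The remaining members, the RNA methyltransferase Nop2, Nop16, the helicase Ddx18 and Noc2l, had log2 fold changes from -0.43 to -0.18 in Lipo, and the first 2 and Noc2l passed the adjusted p.

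Saline knees, injured but without liposomes, were not called different from uninvolved knees in any member. By limma 0 of 39 genes were called in either direction, as were 0% of all genes tested. At an unadjusted p under 0.05 there were 5 members, Bop1, Nle1, Noc3l, Nolc1 and Polr1b, all higher in Saline, with limma adjusted p = 0.809 each. The share of all genes at that unadjusted p was not counted, so this number has no background to be read against. Fitted values ran from -0.38 for Nop10 to 0.30 for Noc3l, with a median of 0.064, and were lower for 10 members and higher for 29, beside 50.6% and 49.4% of all genes. In 6 genes the Saline libraries lay above uninvolved knees without overlap, beside 4.23% of all genes, and in 0 genes below, beside 4.25%. Without uninvolved replicate 3 the median was 0.0017 and still 0 members were called, while 0.29% of all genes were called higher and 0.114% lower.

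Compared with Saline, the liposome groups gave a picture close to that against uninvolved knees, and each liposome group enters both comparisons. In Lipo 10 members fell and 1 rose, beside 12.3% and 10.6% of all genes, and 27 were lower and 2 higher by the adjusted p alone, beside 24.5% and 21.5%. In Lipo-CGS 9 fell and 0 rose, beside 10.3% and 8.23%, and 26 were lower and 0 higher by the adjusted p alone, beside 21.6% and 17.9%. The members' medians were -0.36 and -0.36, beside -0.012 and 0.0050 over all genes. Fitted values were lower for 35 members and higher for 4 in either comparison, beside 51% and 49% of all genes in Lipo and 49.6% and 50.4% in Lipo-CGS. The genes that fell in Lipo were Myc, Ncl, Npm1, Fbl, Rrp9, Dkc1, Gar1, Nop10, Imp3 and Rrs1. Those that fell in Lipo-CGS were Myc, Ncl, Npm1, Fbl, Nop56, Nop58, Rrp9, Gar1 and Nop10. Ncl was not past the fold threshold in Lipo without Lipo replicate 3 (-0.57), and Nop10 missed the adjusted p in Lipo-CGS without Lipo-CGS replicate 2 (adjusted p = 0.0581) or Saline replicate 1 (adjusted p = 0.0594). Myc, Ncl, Npm1, Fbl, Gar1 and Nop10, 6 genes, fell in all 4 comparisons of a liposome group with Saline or uninvolved knees. These comparisons share groups, and the share of all genes that fell in all 4 was not counted, so this number has no background to be read against.

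CGS21680 in the liposomes was not shown to move any member against empty liposomes. In Lipo-CGS against Lipo 0 of 39 genes were called in either direction by limma, beside 0.0791% of all genes higher and 0.0879% lower. An unadjusted p under 0.05 was found for 4 members, and the share of all genes at that level was not counted. Fitted values were higher for 23 members and lower for 16, beside 50.8% and 49.2% of all genes. The median log2 fold change was 0.024, or -0.034 with the same total per library, and in 36 of 39 genes the 95% confidence interval of the difference lay within a 1.5-fold change either way. The exceptions were Imp3, Nop10 and Rrn3. For Imp3 the difference was 0.62 (SE 0.13, adjusted p = 0.0705), with an interval of 0.32 to 0.91, not adjusted for the number of genes, and it was higher in 3 of 3 Lipo-CGS libraries than in any Lipo library. It passed the test only without uninvolved replicate 3 (adjusted p = 0.046), a library of neither group that enters the shared estimate of spread. Rrs1 had 0.31 (SE 0.081, adjusted p = 0.0990) and Ltv1 0.23 (SE 0.089, adjusted p = 0.208), both without overlap. Libraries of 6 members lay higher in Lipo-CGS without overlap and of 4 lower, beside 14.7% and 13.1% of all genes.

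**Figure D4:**
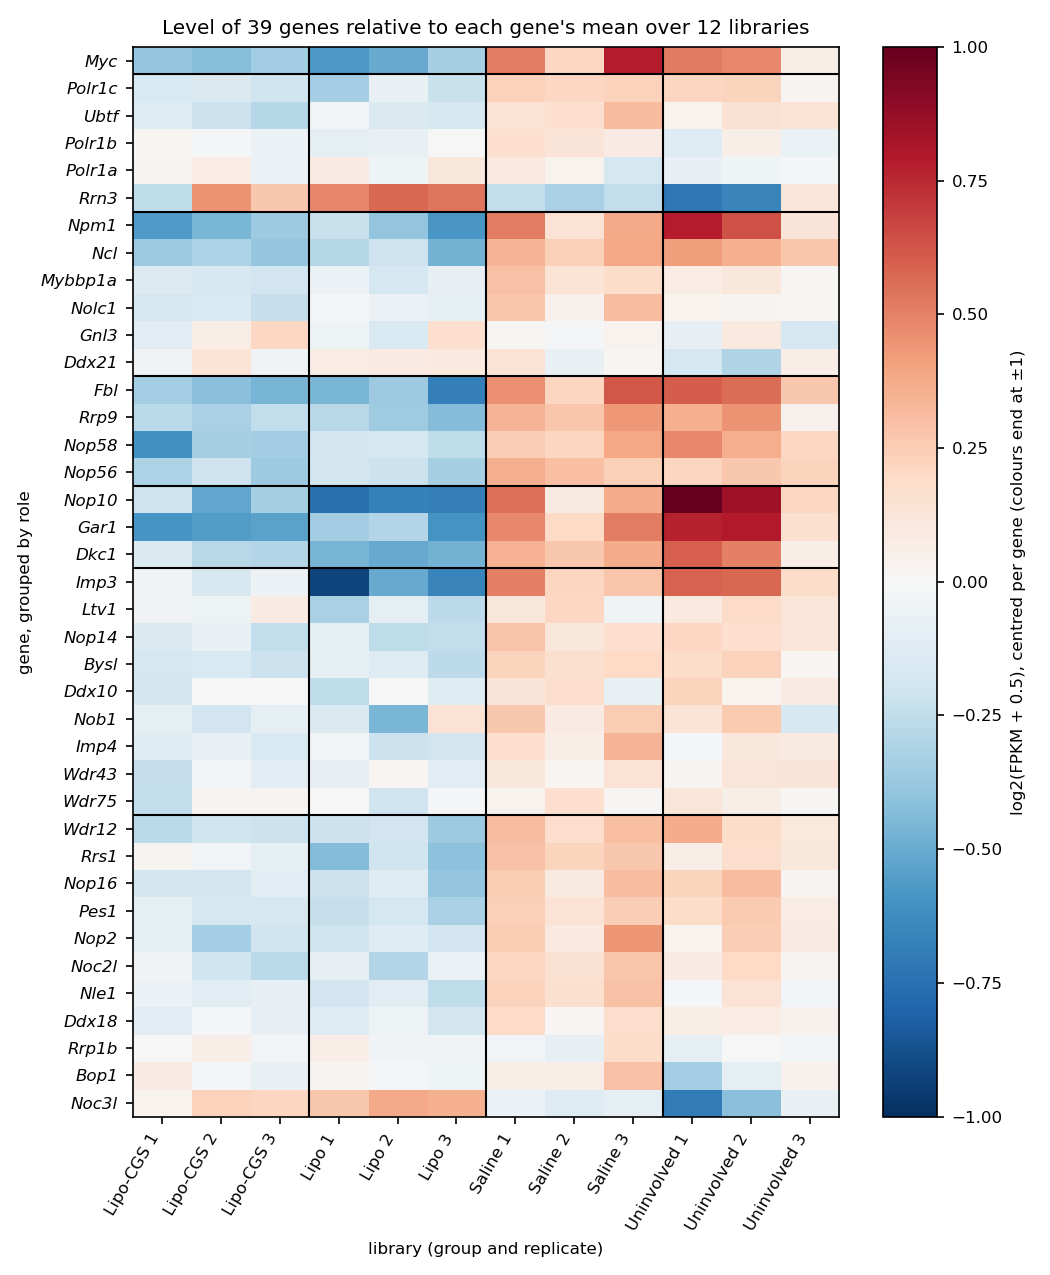
Log2(FPKM + 0.5) of the 39 tested genes (rows, grouped by role) in the 12 libraries (columns), each gene centred on its mean over all libraries, blue for lower and red for higher, with colours ending at ±1. Most rows are blue in the 6 liposome libraries and red in the 6 others, Rrn3 and Noc3l are reversed except in Lipo-CGS replicate 1 and uninvolved replicate 3 of Rrn3, and uninvolved replicate 3 is paler than the rest of its group in most rows.

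Libraries of one group also differed. Uninvolved replicate 3 was the lowest of its group in 24 of 39 genes and Saline replicate 2 in 31 of 39, and total FPKM of uninvolved replicate 3, 441989, was the lowest of its group as well. Without uninvolved replicate 3, 10 members fell and 2 rose in Lipo against uninvolved knees, and 10 fell and 2 rose in Lipo-CGS. The shares of all genes rose too, to 19.2% falling and 17.2% rising in Lipo and to 17.2% and 15.1% in Lipo-CGS.

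Subunit assembly factors outside the set had medians close to that of the members in Lipo against uninvolved knees, where 16.3% of all genes fell and 14.1% rose. Of 48 other small subunit factors 11 fell and 1 rose, with a median of -0.29. Of 45 other large subunit factors 10 fell and 2 rose, with a median of -0.29. Eif6, which keeps new large subunits from joining too early, had a mean of 72.5 ± 4.18 FPKM in Lipo, against 123 ± 12.4 FPKM in uninvolved knees (n = 3 each, ± SD). Its log2 fold change was -0.75 (adjusted p = 0.000145), and that of the small subunit factors Utp3, Emg1 and Trmt112 was -1.03, -0.83 and -1.09. The large subunit factors Nol12 and Rrp15 had -1.17 and -0.69. In Lipo-CGS against uninvolved knees 9 of the small subunit list fell and 0 rose, and 6 of the large subunit list fell and 2 rose. That is 18.8% and 13.3% of the lists falling, beside 14% of all genes falling and 11.7% rising. With the same total per library the medians in Lipo were -0.054 and -0.053, beside 0.21 over all genes. Then 7 and 3 genes fell, beside 9.14% of all genes.

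Of 10 assembly factors of snoRNPs 4 fell and 0 rose in Lipo, with a median of -0.43, where 16.3% of all genes fell and 14.1% rose. Among them the paired helicases Ruvbl1 and Ruvbl2 stood at -0.78 and -0.87 on the log2 fold change scale (adjusted p = 0.000344 for the first and 0.000199 for the second), and Znhit6, which acts in box C/D assembly, at -0.59. In the exosome and RNase MRP list, which trims and cuts precursor RNA, 10 of 21 fell and 0 rose, with a median of -0.57. Exosc7, Exosc2 and Exosc3, subunits of the exosome ring and cap, had -1.07, -0.70 and -0.75. Of 12 other RNA polymerase I factors 2 fell and 1 rose, with a median of -0.13. The falling genes were the small subunits Znrd1 (-0.92) and Cd3eap (-1.13), and Baz2a, a silencer of ribosomal RNA genes, rose (0.67). In Lipo-CGS against uninvolved knees 2 of the snoRNP assembly list, 9 of the exosome list and 2 of the polymerase I list fell, and 0, 0 and 1 rose. Of all genes 14% fell and 11.7% rose there. The medians of the 3 lists in Lipo were -0.22, -0.34 and 0.096 with the same total per library, beside 0.21 over all genes. None of these lists had a call in Saline against uninvolved knees or in Lipo-CGS against Lipo.

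Cell division genes were also lower in the liposome groups than in uninvolved knees, with more calls in Lipo-CGS than in Lipo but 0 between them. Of 24 such genes 12 fell in Lipo and 24 fell in Lipo-CGS, with medians of -0.58 and -1.28, where 16.3% and 14% of all genes fell. Scaled to the same total, 6 fell in Lipo and 21 in Lipo-CGS, beside 9.14% and 8.98% of all genes, with medians of -0.34 and -1.11. Their summed level was 443 to 592 FPKM in Lipo-CGS, 559 to 1045 FPKM in Lipo, 1155 to 1410 FPKM in Saline and 1338 to 1512 FPKM in uninvolved knees. Pcna, the clamp of DNA polymerases, averaged 92.3 ± 15.2 FPKM in Lipo-CGS, 119 ± 29.8 FPKM in Lipo, 278 ± 10.02 FPKM in Saline and 329 ± 42.4 FPKM in uninvolved knees (n = 3 each, ± SD). Its log2 fold change in Lipo against uninvolved knees was -1.48, beside -1.28 and -1.20 for Mcm7 and Mcm3, subunits of the replicative helicase. In Lipo-CGS against Lipo the median of the list was -0.70 with 0 genes called, beside 0.024 for the ribosome biogenesis genes. Of 22 immediate early genes 20 fell and 0 rose in Lipo against uninvolved knees, beside 16.3% and 14.1% of all genes. Their median was -1.68, and the transcription factor genes Fos and Egr1 and the gene Ier2 had -4.07, -3.23 and -2.50. The part of either list in the values of the ribosome biogenesis genes was not tested.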

How the data were processed

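RNA of 12 libraries was analysed. Per the methods, single reads were aligned with STAR to Rnor_6.0 and counted with featureCounts, while the submitters' processing notes name HTSeq. The authors deposited FPKM values with 2 decimals. The step from counts to FPKM, the annotation, strand and treatment of shared reads are not given in the sources used here, and read numbers are unknown, so no counting interval is given.

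Values were analysed as deposited, as log2(FPKM + 0.5), after the filter of 1 FPKM in 3 libraries. The 4 group means were estimated in 1 fit over all 12 libraries by limma 3.58.1 under R 4.3.3 (eBayes with trend, 8 residual and 3.65 prior degrees of freedom), two-sided, with Benjamini-Hochberg adjustment over all genes tested. The thresholds are those of the methods. The procedure was tested on simulated data. No library columns were identical. Columns were assigned to groups by name.

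The members and lists were chosen with earlier results of these data known. Values in every library are given for Myc, Ncl, Npm1, Fbl, Ubtf, Polr1a and Polr1b, for the 2 members of each role with the smallest adjusted p in Lipo against uninvolved knees, the 3 with the smallest in Lipo-CGS against Lipo, Saline against uninvolved knees and Lipo against Saline, and members against most of their role; of other lists the 3 genes with the smallest adjusted p are named, except 1 that is not reported here. Other members are given by range or by their test. Promoter sequences are from RefSeq, assembly GRCr8, and no other coordinates of it were used. Alternatives were a pseudocount of 1 or of 0.1, leaving the filter out or raising it to 5 FPKM, median-of-ratios scaling, a fit to the compared groups, the replicate block, robust eBayes, no fold threshold and each library left out; scaling to the same total was chosen after the library totals were seen. Figures were drawn with matplotlib 3.10.9.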

Additional observations from a re-analysis of the deposited data

How the results depend on the processing

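Of the 39 calls of single members in the 6 comparisons, 27 were kept under each of 21 alternatives other than the fold threshold, 12 were lost under at least 1, and 0 changed direction. For Lipo-CGS against uninvolved knees the number of members called higher, 0 as reported, was 2 with a pseudocount of 0.1, 1 with median-of-ratios scaling, 2 with the same total in every library and 2 without the fold threshold, and the number called lower was 5 with the same total. Without the fold threshold 23, 23, 27 and 26 members were lower, in the order Lipo and Lipo-CGS against uninvolved knees, then each against Saline, and 2 were higher in Lipo against Saline. With the same total in every library the members' medians were -0.062 (Lipo), -0.089 (Lipo-CGS) and 0.16 (Saline) against uninvolved knees, -0.034 for Lipo-CGS against Lipo, and -0.22 (Lipo) and -0.28 (Lipo-CGS) against Saline; the totals differ between groups, and which scaling is nearer to the RNA per cell was not tested. Under it the medians of the small and large subunit factors were near 0 against uninvolved knees. Those of all genes were 0.21 in Lipo and 0.18 in Lipo-CGS. Against Saline 9 of 9 and 9 of 11 of these factors still had lower fitted values in each liposome group.

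With single libraries left out, Lipo against uninvolved knees gave 1 to 2 members higher, 8 to 10 lower and a median of -0.35 to -0.26. Lipo-CGS against uninvolved knees gave 0 to 2, 7 to 10 and -0.32 to -0.22. Saline against uninvolved knees gave 0 in each direction and 0.0017 to 0.085, and Lipo-CGS against Lipo 0 to 1 higher, 0 lower and 0.0014 to 0.031. Lipo against Saline gave 1 higher, 8 to 10 lower and -0.42 to -0.35, and Lipo-CGS against Saline 0 to 1, 7 to 10 and -0.39 to -0.33. No pairing of samples by replicate number was seen, though these correlations cannot exclude that libraries share rats. Of 18 correlations between same-numbered libraries of different groups, from -0.22 to 0.20, 2 were over 0.1, and not every library correlated best with its own number. With the number as a replicate block the counts were 9 lower and 2 higher for Lipo and 8 and 0 for Lipo-CGS against uninvolved knees, 10 and 1 for Lipo and 9 and 0 for Lipo-CGS against Saline, and 0 in both other comparisons. Precision is limited by 3 libraries per group and by the unknown read numbers, which weigh most on the low genes Rrn3 and Noc3l.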

Other observations

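Among neighbours of the pathway, RNA polymerase III and the partners of MYC had medians near 0 in Lipo against uninvolved knees as deposited. With the same total per library these were 0.25 and 0.26, beside 0.21 over all genes. In that comparison 16.3% of all genes fell and 14.1% rose, or 9.14% and 24% with the same total. Of 19 genes of RNA polymerase III, which makes transfer RNA and the smallest ribosomal RNA, 3 rose and 2 fell, with a median log2 fold change of 0.024. Its subunit Polr3d fell by 0.65 on the log2 scale, and Gtf3c1, a subunit of its DNA-binding factor, rose by 0.71 (limma adjusted p = 0.000113 and 0.000346). Scaled that way 4 genes of the list rose and 0 fell, so that the call of Polr3d was lost. Of 8 tested MYC partners and antagonists 2 rose and 0 fell, with a median of 0.042. These were Mxd4, a partner of MAX that opposes MYC, at 25.6 ± 0.0436 FPKM in Lipo-CGS, 28.6 ± 5.09 FPKM in Lipo, 12.6 ± 0.467 FPKM in Saline and 14.4 ± 0.686 FPKM in uninvolved knees, and Mga, another MAX partner, at 5.45 ± 0.158, 6.45 ± 1.32, 3.02 ± 0.522 and 2.58 ± 0.711 FPKM in the same groups (n = 3 each, ± SD). Max itself had a mean of 35.7 ± 4.53 FPKM in Lipo, against 45.2 ± 3.40 FPKM in uninvolved knees and was not called (log2 fold change -0.34, adjusted p = 0.0130).

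Of 24 translation factors 7 fell and 1 rose in Lipo against uninvolved knees, beside 16.3% and 14.1% of all genes, with a median of -0.31. Eif3g, Eif2s2 and Eif3i, which act in initiation, had log2 fold changes of -0.87, -0.65 and -0.72. Scaled to the same total, 2 fell and 2 rose, beside 9.14% and 24% of all genes. The median was then -0.071, beside 0.21 over all genes. Of 15 nucleotide supply genes 1 rose and 0 fell, with a median of -0.20, or 0.038 with the same total. Ctps1, which makes cytidine triphosphate, had a mean of 52.99 ± 2.92 FPKM in Lipo, against 32.1 ± 4.32 FPKM in uninvolved knees (n = 3 each, ± SD), a log2 fold change of 0.72 (adjusted p = 0.000236). Dhodh and Impdh2, enzymes of pyrimidine and guanine nucleotide synthesis, had -0.57 and -0.41, both under the fold threshold. Of 11 snoRNA host genes 1 was in the table and 0 were tested.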
